A study of Mus musculus with 2 samples.

Results

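The transcripts described here encode 9 receptors with which blood stem and progenitor cells home to, adhere in and leave the bone marrow niche: the chemokine receptor gene Cxcr4, the integrin subunit genes Itga4, Itgb1, Itgal and Itga6, the hyaluronan receptor gene Cd44, the selectin ligand gene Selplg, and Robo4 and Esam, which are shared with endothelium. They were chosen by name, and all 9 were found among 39017 gene identifiers of the deposited table. RNA came from Lin- Sca-1+ c-Kit+ (LSK) bone marrow cells, the fraction that holds stem cells and multipotent progenitors. One library was made from a pool of 6 miR-146a-/- mice and 1 from a pool of 12 WT mice, all of strain background C57BL/6J and 10 to 14 weeks old. The mutant lacks miR-146a, a microRNA that NF-kB induces and that represses adaptors of Toll-like and interleukin-1 receptor signalling. Each genotype thus had 1 library, the differences below have no replicates behind them, and every statement compares these pools.

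As background, a stem cell that enters marrow from blood is thought to roll on selectins through PSGL-1 and CD44, to arrest on the vessel wall through the integrins VLA-4 (alpha4 beta1) and LFA-1 (alphaL beta2), and to move towards CXCL12, the ligand of CXCR4 that niche stroma secretes. The integrin alpha6 beta1 binds laminin in basement membranes. Robo4 and ESAM are membrane proteins of vascular endothelium and of stem cells in mice, where they have served as markers and where Robo4 has been tied to the lodging of stem cells.

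The labels of the cells were checked against their sorting markers. Kit was at 728 and 558 TMM-normalised CPM (counts scaled to the effective library size) in miR-146a-/- and WT, and Ly6a, which encodes Sca-1, was at 74.7 and 66.8. The T cell receptor complex genes Cd3e, Cd3d and Cd3g had 0 counts in both libraries. Other lineage transcripts were present: the 10 T and NK cell markers, these 3 included, summed to 49.96 and 58.3 CPM. The myeloid integrin gene Itgam was at 56.8 and 35.9 CPM and the B cell gene Cd79b at 15.7 and 16.2. Total counts were 22231389 in miR-146a-/- and 35069136 in WT, of which protein-coding genes held 51.5% and 81.4%. The non-coding gene Gm42418, which overlaps a ribosomal RNA repeat, held 27.2% and 2.13%. Xist was at 2938 and 236 CPM and 4 Y-linked genes summed to 17.0 and 97.4 CPM, so the pools differed in sex-linked transcripts. The targeted microRNA gene had 0 counts in both libraries and gave no check of the labels. Scaled by total counts, the median log2 ratio of all measured genes was -0.83, against -0.01 by TMM, and the ratios of all 9 receptors then lay below 0. Each ratio below is therefore a difference relative to the bulk of genes.

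Robo4 and Itga4 were higher in the miR-146a-/- library, and the other 7 receptors were called neither higher nor lower. A gene was called when the whole 95% counting interval of its miR-146a-/- over WT ratio lay beyond 1.5-fold, a log2 ratio of 0.58. By that rule 2 of 9 receptors were higher and 0 were lower. Among 13880 genes with at least 20 counts, termed measured, 5.35% were called higher, 1.53% lower and 6.87% either way, and among 10365 protein-coding genes with at least 200 counts 3.71% were higher and 1.52% lower. A count of 2 of 9 is too small to set the group apart from these shares. Each list count of called genes below is to be read beside the shares of all measured genes, and no list was tested against them. All 9 receptors were measured, with 1295 to 17380 counts summed over both libraries. Their median log2 ratio was 0.12, and 7 of 9 ratios were positive, where all measured genes had a median of -0.01 and 6770 positive ratios. In bulk RNA, more cells that carry a transcript and more transcript per cell cannot be told apart.

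**Figure D1:**
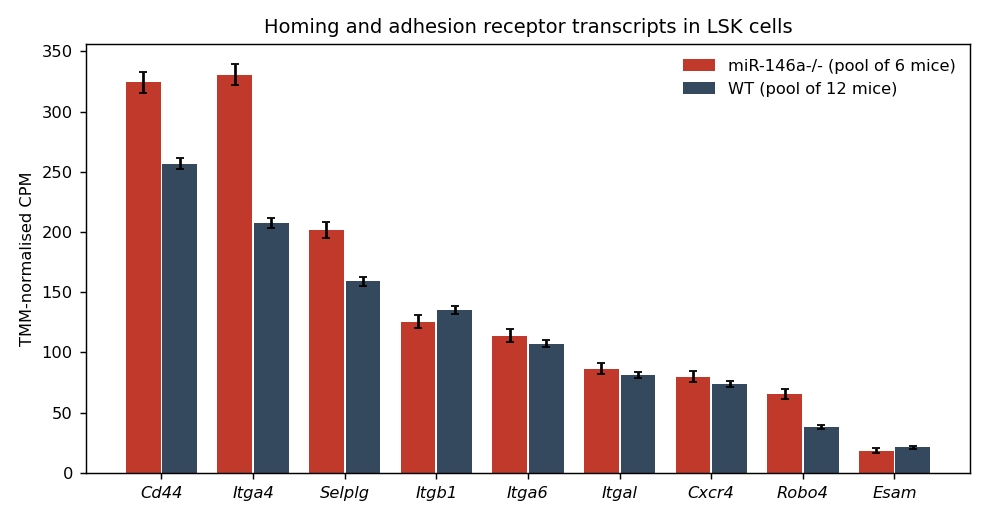
TMM-normalised CPM of each receptor transcript (y axis) in the miR-146a-/- library (red, left bar of each pair) and the WT library (dark, right bar), with 95% Poisson intervals that cover counting error only. Itga4 stands at 330 CPM in miR-146a-/- and 208 in WT and Robo4 at 65.6 and 38.1, while the bars of Esam are 18.4 and 21.2. By total counts, all 9 ratios lie below 0.

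CXCR4 is the receptor through which the niche chemokine CXCL12 retains stem cells in marrow, and its transcript was nearly equal in the 2 libraries. Cxcr4 (chromosome 1, 128588199 to 128592293, minus strand, mm10) had 1336 counts in miR-146a-/- and 3422 in WT, or 79.9 (75.7 to 84.3) and 73.4 (71.0 to 76.0) CPM. These levels overlapped in their counting intervals, and the log2 ratio was 0.12 (0.03 to 0.21). Of all measured genes, 37.7% had a higher ratio.

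The other receptors that guide leukocytes were mostly not called or too rare to measure. Of 27 chemokine and sphingosine-1-phosphate receptor genes 15 were measured, 1 was called higher, 0 were lower, and the median was -0.17. The called gene was Ccrl2, an atypical receptor that binds chemerin and does not signal like a chemokine receptor, with 722 and 610 counts and a log2 ratio of 1.72 (1.56 to 1.88). S1pr1, which encodes the receptor that draws cells out of tissue towards blood, was at 49.2 and 30.2 CPM, a log2 ratio of 0.70 whose lower bound of 0.576 fell short of the call. Ackr3, the second receptor for CXCL12, had 8 and 4 counts, too few for a ratio. Cxcl12 itself had 10 and 36 counts, a log2 ratio of -0.36 (-1.55 to 0.67).

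Downstream of CXCR4, 2 of 23 measured genes of G protein signalling and desensitisation were higher and 0 were lower, with a list median of 0.07. Beside this count, 5.35% of all measured genes were called higher and 1.53% lower. Both were regulators of G protein signalling, which speed the shut-off of G alpha subunits. Rgs1 was at 450 and 205 CPM (log2 ratio 1.13, 1.09 to 1.18) and Rgs2 at 346 and 166 (1.06, 1.01 to 1.11). In mice, RGS1 is known to limit chemotaxis to CXCL12. The most abundant genes of the list, which code for the G alpha subunit Gnai2 and the Rac activator Dock2, were at 0.14 and 0.28 and were not called. By total counts Rgs1 and Rgs2 lie, like all genes, lower by the shift given above.

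Among the integrins, transcript of the alpha4 subunit was higher in miR-146a-/- while that of its beta partners was not. Itga4 (chromosome 2, 79255426 to 79333123, plus strand) had 5521 counts in miR-146a-/- and 9683 in WT. This equals 330 (322 to 339) CPM in miR-146a-/- and 208 (204 to 212) in WT, which do not overlap in their counting intervals. The log2 ratio was 0.67 (0.62 to 0.72), or 1.59-fold, and 10.6% of measured genes had a higher one. It was 0.58 (0.53 to 0.63), and the call was lost, once genes of like length and GC content were taken as the baseline. By total counts it was -0.15, where it lay 0.68 above the median of all genes. The call was also lost with no count filter (0.60) and when scaled by protein-coding totals (0.51). Over protein-coding genes the median was -0.17 in the decile of shortest genes and 0.17 in the decile of longest, and 0.09 among those of like length and GC content to Itga4.

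Itgb1 (chromosome 8, 128685654 to 128733200, plus strand), which encodes the shared beta1 chain of VLA-4 and of alpha6 beta1, had 2100 counts in miR-146a-/- and 6300 in WT. Its level was 126 (120 to 131) CPM in miR-146a-/- and 135 (132 to 139) in WT, a log2 ratio of -0.11 (-0.18 to -0.03). Itgb7, whose product also pairs with alpha4 and binds MAdCAM-1 in gut vessels, was at 34.3 and 34.9 CPM (-0.03). The difference between 2 genes in this ratio does not depend on how the libraries are scaled. For Itga4 minus Itgb1 it was 0.77 (0.69 to 0.86) and for Itga4 minus Itgb7 it was 0.70 (0.55 to 0.84). Such differences can still move with the baseline of like length and GC content, by which Itga4 was at 0.58 and Itgb1 at -0.06. Per kilobase of exon, Itga4 transcript stood at 0.768 of the Itgb1 level in miR-146a-/- and at 0.449 in WT.

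Itga6 (chromosome 2, 71745616 to 71858416, plus strand) encodes the laminin-binding alpha6 chain. It had 1906 and 5001 counts, or 114 (109 to 119) CPM in miR-146a-/- and 107 (104 to 110) in WT, with a log2 ratio of 0.09 (0.01 to 0.16). In log2 ratio, Itga6 minus Itgb1 was 0.19 (0.09 to 0.30) and Itga6 minus Itgb4 was -0.30 (-0.72 to 0.12). The second difference rests on 68 and 145 counts of Itgb4. Per kilobase of exon, Itga6 stood at 21.8 times the Itgb4 level in miR-146a-/- and 26.8 times in WT. Itga4 exceeded Itga6 in log2 ratio by 0.58 (0.49 to 0.67).

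Itgal (chromosome 7, 127296260 to 127335138, plus strand) encodes the alphaL chain of LFA-1, the leukocyte integrin that binds ICAM proteins. It had 1443 and 3776 counts, or 86.3 (81.9 to 90.9) CPM in miR-146a-/- and 81.0 (78.5 to 83.7) in WT. The intervals overlapped and the log2 ratio was 0.09 (0.003 to 0.18). Itgb2, its only partner, was at 18.1 and 21.6 CPM (-0.25, -0.45 to -0.07), so Itgal minus Itgb2 was 0.35 (0.14 to 0.55). Icam1, a ligand of LFA-1 and a known NF-kB target, was called higher at 71.6 and 42.0 CPM (0.77, 0.66 to 0.87). Vcam1, which encodes the ligand of VLA-4 on niche vessels, had 16 and 32 counts (0.47, -0.49 to 1.39).

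**Figure D2:**
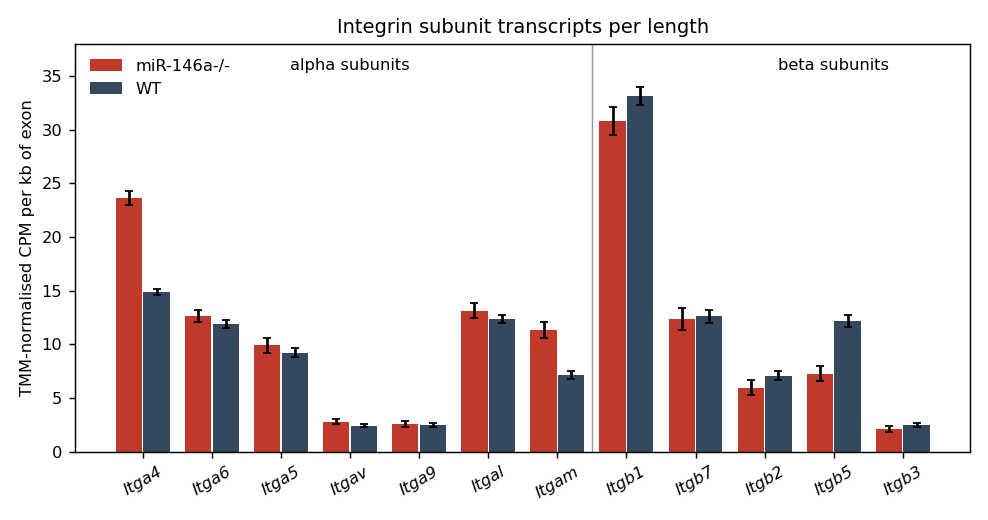
Level per length, in TMM-normalised CPM per kilobase of exon (y axis), of 7 integrin alpha and 5 beta subunit transcripts in the miR-146a-/- library (red, left) and the WT library (dark, right), with 95% Poisson intervals. Itga4 reaches 23.6 in miR-146a-/- against 14.9 in WT, while Itgb1 is at 30.8 and 33.1 and Itgb5 at 7.24 and 12.2. Scaling by total counts would lower every miR-146a-/- bar against WT by the same factor.

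Across the whole family, 14 of 18 alpha subunit genes were measured, of which Itga4 was the 1 called higher and 0 were lower, with a median of 0.17. Of 9 beta subunit genes 6 were measured, 0 were called higher, 1 was called lower and the median stood at -0.17. With genes of like length and GC content as the baseline, the medians were 0.07 for alpha and -0.08 for beta subunits. The lower gene was Itgb5, whose product pairs with alphaV and binds vitronectin, at 25.7 and 43.3 CPM (-0.75, -0.90 to -0.60). Itgam, the alpha chain of the myeloid integrin Mac-1, was at 56.8 and 35.9 CPM (0.66) with a lower bound of 0.55 and was not called. Among the 12 alpha chains that can pair with beta1, Itga4 made up 43.8% of the summed level per kilobase in miR-146a-/- and 34.6% in WT. Itga6 made up 23.4% and 27.7%, and Itga5, the fibronectin receptor chain, 18.4% and 21.5%. With the longest transcript as length the share of Itga4 was 41.7% and 32.6%.

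Adaptors that link integrins to actin were called in 1 of 20 measured cases. Zyx, which encodes the focal adhesion protein zyxin, was at 664 and 361 CPM (0.88, 0.84 to 0.91). Talin 1 (Tln1), which activates integrins by binding the beta tail, was the most abundant at 1113 and 942 CPM (0.24) and was not called. The median of the list was 0.10. Tetraspanins, which organise integrins in the membrane, had 0 of 9 called and a median of 0.003, with Cd81 at 0.20 and Cd37 at 0.37.

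Itga4 was the 1 receptor of the 9 whose annotated 3' untranslated region held a match of 7 or more bases to the seed of the deleted microRNA. The sequences below show mature miR-146a-5p from RefSeq (GRCm38.p6, chr11:43374435-43374456, minus strand), with seed bases 2 to 8 in capitals. They are followed by the windows in Itga4 and Selplg, from GENCODE M21 transcripts, that hold 6 bases or more of its complement, in capitals.
mmu-miR-146a-5p: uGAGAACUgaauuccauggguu
Itga4 chr2:79330808-79330837, plus strand: tctcaggaatctAGTTCTCAgggggtctcc
Itga4 chr2:79330274-79330303, plus strand: gtaatctgaactGTTCTCtgaacctctctc
Itga4 chr2:79331944-79331973, plus strand: tgcttctctgctGTTCTCtgtaggcccctc
Selplg chr5:113818807-113818836, minus strand: acctgtccttgcGTTCTCcagaaagactca

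The first Itga4 window holds an 8-base match, the complement of bases 2 to 8 followed by A, at base 4205 of a 3' untranslated region of 6508 bases. Such an 8-base match occurred in 558 of 12249 measured protein-coding genes with an annotated 3' untranslated region, or 4.56%. Of those 558 genes 4.66% were called higher, against 4.30% of the 12249, and their median log2 ratio was 0.01, against -0.03. Cxcr4, reported as a miR-146a target in human megakaryocytic cells, held none of these matches, 6-base ones included, in 644 bases. Neither did Robo4 in 1728 bases, although it was the other receptor called higher. A match is a description of the letters and does not show that the microRNA acts there. The last 2581 bases of Itga4 overlap Cerkl on the opposite strand, where reads cannot be assigned if strand was not used, but Cerkl had only 47 and 113 counts.

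CD44 and PSGL-1 are the receptors that carry stem cells along selectins. Both transcripts were somewhat more abundant in miR-146a-/-, and neither was called. Cd44 (chromosome 2, 102811141 to 102901665, minus strand), a receptor for hyaluronan and, when suitably glycosylated, a selectin ligand, had 5422 and 11958 counts. Its level was 324 (316 to 333) CPM in miR-146a-/- and 257 (252 to 261) in WT, intervals that do not overlap. The log2 ratio of 0.34 (0.29 to 0.38) lay wholly within 1.5-fold. Of 10 measured genes for hyaluronan receptors, synthases and the ezrin, radixin and moesin linkers, 1 was called higher, 0 were called lower and the median stood at 0.16. The called gene was the scavenger receptor gene Stab1, at only 19 and 9 counts (2.45, 1.34 to 3.88). Moesin (Msn), the most abundant, was at 0.23.

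Selplg (chromosome 5, 113818536 to 113832644, minus strand) encodes PSGL-1, the mucin that all selectins bind. It had 3366 and 7406 counts, or 201 (195 to 208) CPM in miR-146a-/- and 159 (155 to 163) in WT. The intervals do not overlap, and the log2 ratio of 0.34 (0.28 to 0.40) was close to that of Cd44. Spn, which encodes the sialomucin CD43, was also at 0.34, with 486 and 385 CPM.

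Among the selectins and sialomucins, Selp was called higher. Selp, which encodes the P-selectin of platelets and endothelium, was at 57.3 and 22.1 CPM (1.37, with a lower bound of 1.24). Sele had 5 and 1 counts, too few for a ratio. Of the 10 measured genes of this list 0 were lower, and the median was 0.34. Cd34, the most abundant sialomucin here, was at -0.19.

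Enzymes that build the selectin-binding sugars had lower ratios than Selplg, in the median. Of 12 genes, 1 was higher, 0 lower, and the median was -0.24. Fut7, the fucosyltransferase that completes the ligand on PSGL-1, had 367 and 1256 counts (-0.30, -0.47 to -0.13). Selplg minus Fut7 was 0.64 (0.46 to 0.82). St3gal6, a sialyltransferase, was the called gene, at 7.18 and 3.63 CPM (0.98, 0.63 to 1.33). The most abundant enzymes, Galnt1 and B4galt1, were at -0.24 and 0.03.

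Proteases that cut CXCR4 and its ligand or shed CD44, with their inhibitors, held 1 called higher gene among 12, 0 called lower, and their median stood at 0.32. Elane, neutrophil elastase, was called at 134 and 90 counts (2.04, 1.66 to 2.46). The sheddases Adam10 and Adam17 were more abundant, at 0.13 and -0.25.

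**Figure D3:**
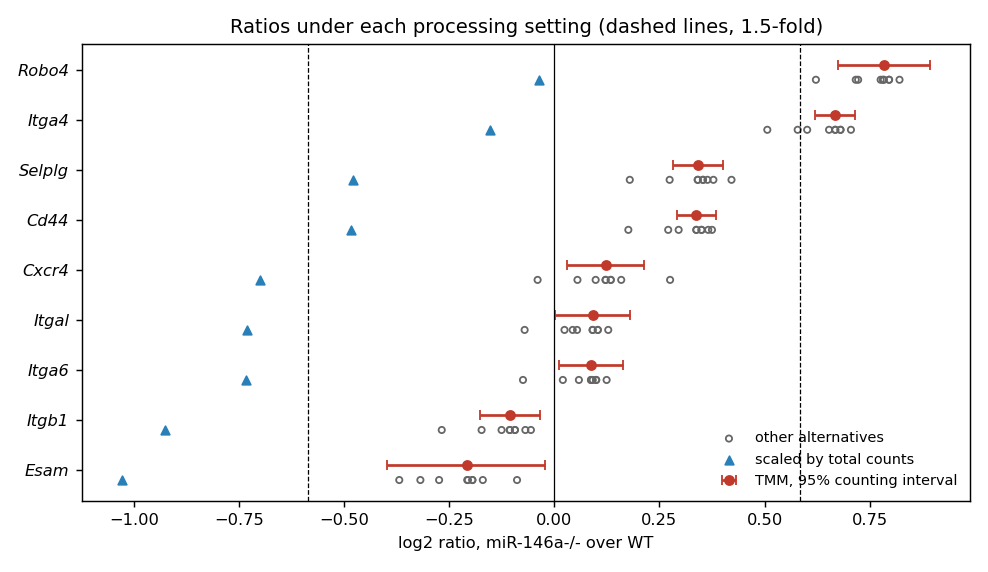
Log2 ratio of miR-146a-/- over WT (x axis) for each receptor, by TMM with its 95% counting interval (red), by total counts (blue triangles) and under the other 9 alternative settings (open circles). Robo4 and Itga4 are rightmost under each setting, at 0.78 and 0.67 by TMM, and the total-count setting moves all 9 receptors by about the same distance to below 0.

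Robo4 and Esam are markers that stem cells share with endothelium. Robo4 transcript was called higher in miR-146a-/-, and Esam was not called. Robo4 (chromosome 9, 37401897 to 37415115, plus strand) encodes an endothelial member of the roundabout family. It had 1096 counts in miR-146a-/- and 1774 in WT, or 65.6 (61.7 to 69.6) and 38.1 (36.3 to 39.9) CPM. These intervals do not overlap. The log2 ratio was 0.78 (0.67 to 0.89), or 1.72-fold, the highest of the 9, and 8.39% of measured genes had a higher one. It was -0.037 by total counts, 0.79 above the median of all genes in that setting. The call was also lost with WT counts thinned to the miR-146a-/- depth (0.72) and when scaled by protein-coding totals (0.62). Esam (chromosome 9, 37528078 to 37538319, plus strand), which encodes an immunoglobulin-like junction protein, had 307 and 988 counts. Its level was 18.4 (16.4 to 20.5) CPM in miR-146a-/- and 21.2 (19.9 to 22.6) in WT, which overlap, with a log2 ratio of -0.21 (-0.40 to -0.02). The Esam ratio was -0.09 (-0.28 to 0.10) with genes of like length and GC content as the baseline. Robo4 minus Esam was 0.99 (0.78 to 1.21), although the genes lie only 112962 bases apart.

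Between and beside them the genes differed one by one. Robo3, on the opposite strand with 553 bases between its end and that of Robo4, had 99 and 74 counts and was called higher at 1.89 (1.45 to 2.35). Msantd2 lay 3452 bases before Esam at -0.03, and Nrgn 6172 bases beyond it at 0.56 (0.47 to 0.65), neither called. Robo4 minus Robo3 was -1.11 (-1.56 to -0.67). Strand use in counting is not given, and whether reads past the Robo4 end enter Robo3 was not tested.

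Of 13 measured genes of the roundabout and SLIT pathway 4 were called higher and 0 lower, against 5.35% and 1.53% of all measured genes. The median stood at 0.32, or 0.16 with genes of like length and GC content as the baseline. Besides Robo3 and Robo4, the genes called higher were Srgap3 (55.3 and 30.8 CPM, 0.84), which encodes a GTPase-activating protein that binds roundabout receptors, and the ligand gene Slit2 (37 and 41 counts, 1.31, 0.65 to 2.01). Robo1 had 18 and 40 counts (0.32), and the abundant effectors Abl1 and Vasp were at 0.24 and -0.06. Of 20 measured junctional adhesion genes 0 were called higher, 3 were called lower and the median stood at 0.17. Tjp1, which encodes the tight junction scaffold ZO-1, was at -0.89 (-1.16 to -0.63) and the laminin receptor gene Bcam at -0.86 (-1.11 to -0.62). Cdh2, N-cadherin, had 0 and 22 counts, at least 2.63-fold lower against a floor of 3 counts in the miR-146a-/- library. The list median was 0.17 with Cdh2 at that bound too. Cd47 and Pecam1, the most abundant, were at 0.23 and 0.48.

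Most of the endothelial markers that could be measured had positive ratios, as Robo4 did, and their part in its ratio was not tested. Among all 13880 measured genes 6770 ratios were positive, and 5.35% were called higher and 1.53% lower. Of 12 such genes 7 were measured, 1 was higher, 0 lower, 6 were positive, the median was 0.50, and they summed to 325 CPM in miR-146a-/- and 271 in WT. Most of that sum was Pecam1 and Tie1 (97.1 and 93.3 CPM), which stem cells express too, and the called gene was Vwf (25.3 and 14.6 CPM, 0.79), also expressed in stem cells and megakaryocytes. Kdr, a receptor gene for VEGF, had 25 and 49 counts (0.50, -0.25 to 1.23), and Tek and Emcn were at 0.69 and 0.51, none of them called. Egfl7 was the 1 measured marker below 0, at 24.4 and 37.8 CPM (-0.63, -0.79 to -0.47). The other 5 were too rare to measure: Cdh5, Cldn5, Stab2 and Ptprb had 3, 1, 4 and 1 counts in miR-146a-/- and 4, 8, 10 and 2 in WT, and Lyve1 was at 0 in both.

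Promoter windows of 300 bases, from 250 before to 50 after the start, were held by RefSeq for 5 of the 9 receptors: Cxcr4, Itga4, Itgb1, Cd44 and Robo4. Those of the called genes Itga4 and Robo4 are printed from GRCm38.p6, in lower case throughout because none of the motifs searched occurred in them.
Itga4 chr2:79255176-79255475, plus strand: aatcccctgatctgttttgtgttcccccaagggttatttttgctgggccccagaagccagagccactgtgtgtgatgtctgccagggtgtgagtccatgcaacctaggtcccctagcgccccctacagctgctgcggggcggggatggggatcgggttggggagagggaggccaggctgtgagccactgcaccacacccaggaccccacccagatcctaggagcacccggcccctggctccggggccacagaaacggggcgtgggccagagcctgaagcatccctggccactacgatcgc
Robo4 chr9:37401722-37402021, plus strand: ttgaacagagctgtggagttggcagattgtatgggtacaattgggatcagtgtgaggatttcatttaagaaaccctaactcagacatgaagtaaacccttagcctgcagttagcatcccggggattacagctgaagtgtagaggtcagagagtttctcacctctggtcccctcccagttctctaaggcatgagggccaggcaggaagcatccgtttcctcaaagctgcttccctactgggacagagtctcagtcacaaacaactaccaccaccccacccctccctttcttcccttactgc

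The motifs were CGGAAG for ETS factors, AGATAA for GATA factors, TGANTCA for AP-1, the 10-letter kappaB motif for NF-kB and ACGTG for hypoxia-inducible factors, each on both strands. Over 32851 promoter windows of this length they occurred in 16.9%, 11.2%, 7.81%, 50.8% and 19.6%. Of the 5 receptor windows, that of Cd44 alone held any, with 1 GATA, 2 NF-kB and 1 hypoxia motif. No match says only that these letters are not in the window.

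Within each library the receptors fell into a few tiers of transcript level per kilobase of exon. In miR-146a-/- the order was Cd44 (47.9), Selplg (47.1), Cxcr4 (44.2), Itgb1 (30.8), Itga4 (23.6), Itgal (13.1), Itga6 (12.6), Robo4 (12.4) and Esam (6.41). The counting intervals of the first 3 met, as did those of Itgal, Itga6 and Robo4. In WT the order was Cxcr4 (40.6), Cd44 (37.9), Selplg (37.2), Itgb1 (33.1), Itga4 (14.9), Itgal (12.3), Itga6 (11.9), Esam (7.40) and Robo4 (7.18), where Cd44 met Selplg, Itgal met Itga6 and Esam met Robo4. The order depends on annotated length: with the longest transcript in place of merged exons, Selplg came first in both libraries, at 87.0 and 68.7. By that length Robo4, at 13.2 in miR-146a-/- and 7.69 in WT, lay below Itgal (16.5 and 15.5) and Itga6 (26.5 and 24.9) in both, and above Esam (9.85) in miR-146a-/- but below it (11.4) in WT.

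**Figure D4:**
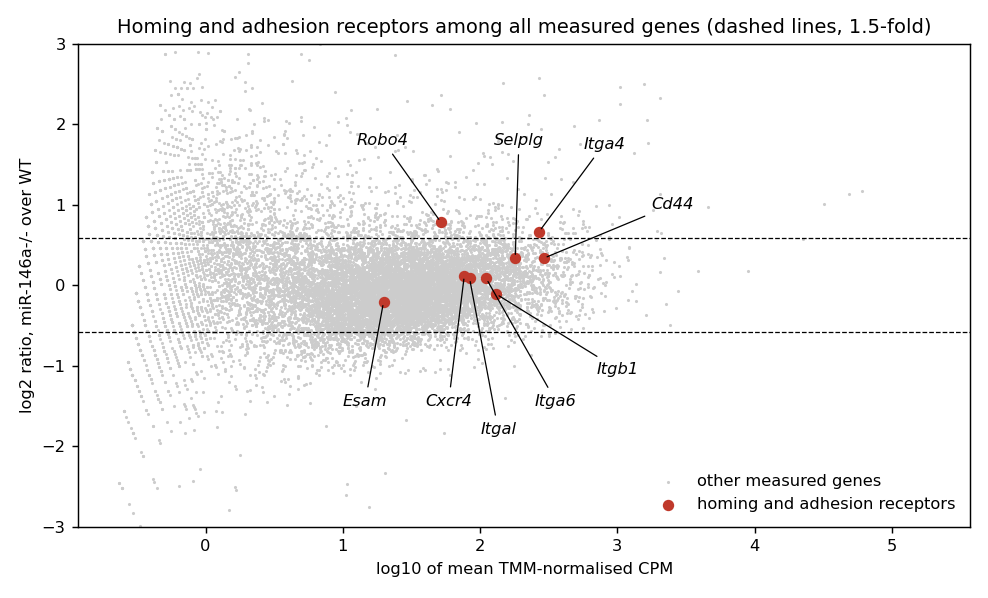
Log2 ratio of miR-146a-/- over WT (y axis) against log10 of the mean TMM-normalised CPM (x axis) for 13653 measured genes with a name (grey) and the 9 receptors among them (red), with 63 genes beyond the axis not drawn. Dashed lines mark 1.5-fold. Robo4 and Itga4 lie above the upper line at 0.78 and 0.67, and the other 7 lie between the lines. By total counts all 9 fall below 0.

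Taken over the 13 lists of partner genes, 217 distinct genes were listed and 177 measured, of which 15 (8.47%) were higher and 4 (2.26%) lower. Beside them stand 5.35% and 1.53% of all measured genes. Outside the 9 receptors, 13 of 168 were higher. Among ligands that the niche presents, Icam1 was the 1 of 13 called higher, 0 were called lower and the median stood at 0.31. Angpt1, which encodes a Tie2 ligand that stem cells make themselves, was the most abundant at 364 and 290 CPM (0.33), followed by Thbs1 (0.12).

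**Figure D5:**
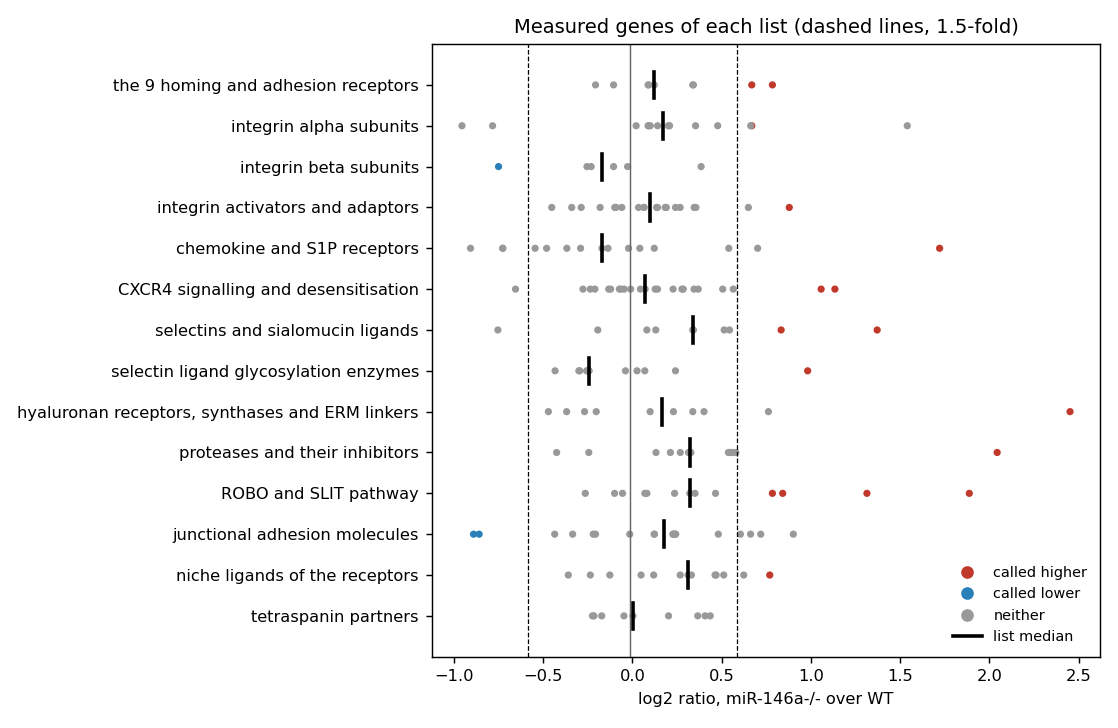
Log2 ratio of miR-146a-/- over WT (x axis) for the measured genes of each list (rows), with called genes in red (higher) and blue (lower) and the list median as a black bar. The grey line is the median of all measured genes at -0.01, dashed lines mark 1.5-fold, and Cdh2, at 0 counts in miR-146a-/-, is not drawn. The list medians run from -0.24 for glycosylation enzymes to 0.34 for selectins and sialomucins, and by total counts all of them lie below 0.

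Leukocyte integrins, Selplg and Cd44 are expressed by mature blood cells as well, so markers of these were read beside them, and their part in the results was not tested. The marker counts stand beside 5.35% of all measured genes called higher and 1.53% called lower. Neutrophil markers summed to 7.72 CPM in miR-146a-/- and 15.6 in WT, with 3 of 7 measured lower (Ltf, Ngp and S100a9), 0 higher and a median of -1.23. Monocyte and macrophage markers summed to 120 and 103 CPM, with 3 of 10 higher (Ly6c2, F13a1 and Ms4a6c), 0 lower and a median of 0.55. T and NK cell markers summed to 49.96 and 58.3 CPM, with 1 of 4 higher (Gzmb, 13 and 9 counts), 0 lower and a median of 0.40. B cell markers summed to 261 and 314 CPM, nearly all of it Ighm, with 1 of 4 lower (Jchain) and a median of -0.16. Megakaryocyte markers summed to 80.7 and 61.2 CPM, with 3 of 8 higher (Gp9, Gp1ba and Vwf), 0 lower and a median of 0.46. Erythroid markers summed to 3.77 and 2.19 CPM, with 0 of 5 called. Stromal markers summed to 61.6 and 56.4 CPM, nearly all of it Pdgfrb, with 0 of 2 called and with Col3a1, Lepr, Dcn and Lum at 0 in both. LSK surface and stem cell markers had 0 of 10 called and a median of 0.24.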

How the data were processed

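Per the file headers, the authors deposited raw counts (whole numbers, unscaled, 1 row for each Ensembl gene) from alignments with junctions placed on the genome and duplicates flagged. RNA was ribodepleted, per the labels' protocols. STAR 2.5.3a, Salmon 0.9.0 and mm10 stand in the submitters' processing notes without a role. For the counting program, its strand setting and its annotation, the sources used here give nothing.

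Symbols, positions and lengths came from GENCODE M21, which named 37693 of 39017 identifiers. TMM library sizes came from edgeR 4.0.16 over genes with at least 20 summed counts. With 1 library per genotype no test or p-value was possible. Log2 ratios used a prior count of 0.5 and exact Clopper-Pearson intervals at 95%, and levels exact Poisson intervals. Differences between 2 genes used a normal interval on the log odds ratio and were added after the data were seen. Intervals and the floor of 3 counts describe counting error alone, because without molecular identifiers reads may be copies of 1 molecule. The ratio code was tested on simulated data.

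Receptors and lists were chosen with earlier results of these data known. Per list, the text names up to 3 called genes in each direction (by the interval bound nearest to 0), the 2 most abundant, and set partners of the receptors. Genes outside that rule, such as Itgam, Itga5, Fut7, Nrgn, Msantd2, Gm42418, the remaining endothelial markers and markers at or near 0, were picked with their values in view. The alternatives tried were other scalings (DESeq2 1.42.0, upper quartile, total counts), count filters, fold, prior count, length and GC adjustment, thinning of WT and another transcript length. Some genes of the lists are counted in the totals but not reported here by name.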

Additional observations from a re-analysis of the deposited data

How the results depend on the processing

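By TMM 2 of 9 receptors were higher and 0 lower. Scaled by total counts, 0 were higher and 5 lower, the receptor median was -0.70, Itga4 was at -0.15 and Robo4 at -0.037, while 3 partner genes were higher and 77 lower and 1.01% and 51.0% of all measured genes were higher and lower. That setting moved the median of all genes to -0.83. By protein-coding totals 0 receptors were higher, their median was -0.040, 9 partner genes were higher and 4.14% of all genes were lower. With the 2-fold threshold, stricter by construction, 0 receptors, 7 partner genes and 2.12% of all genes were higher, and 0 partner genes and 0.303% of all genes were lower. With no count filter 1 receptor (Robo4) was higher. After length and GC adjustment 1 (Robo4) was higher, the receptor median was 0.28 and 0.901% of all genes were lower. With WT thinned, 1 receptor (Itga4) was higher and 2 partner genes were lower, and with at least 200 counts 1 partner gene was lower. For these settings the cause was not tested beyond the shift in scaling. Relative to the median of all genes, Robo4 ran from 0.73 to 0.83 and Itga4 from 0.58 to 0.71 over the 10 alternatives. Differences between 2 genes do not depend on scaling but can move with the length and GC adjustment. No paired analysis was possible because each genotype had 1 library. With single pools, depth limits only the counting intervals, and the spread between mice is unknown.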
